A study of Homo sapiens with 18 samples.

Results

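The SOX genes outside SOX2 and SOX17 were examined in human induced pluripotent stem cells (iPSCs) with and without PCGF6. The 10 genes were taken by name from a table of 57133 genes: SOX3, SOX4, SOX5, SOX6, SOX7, SOX8, SOX9, SOX10, SOX11 and SOX21. All 10 passed the filter on low counts, which left 17672 genes, but SOX6 and SOX21 passed it only through the PCGF6-KO libraries. The study asked what PCGF6, a subunit of the polycomb repressive complex PRC1.6, does in human pluripotent cells and in their choice of lineage. RNA-seq was done on the iPSC line PGP1, an established line that was kept undifferentiated in mTeSR1 medium on Matrigel. WT cells gave 2 libraries, and each of 2 PCGF6-KO clones, called clone 1 and clone 2 here, gave 2 libraries. Each clone is 1 line, grown from a single sorted cell after Cas9 and a pair of guide RNAs had removed part of the first PCGF6 exon from both alleles. No treatment was given, and whether the WT cells had gone through single-cell cloning is not given in the sources used here, so the knockout and the cloning cannot be told apart in the comparison with WT. The labels do not say whether the 2 libraries of a group came from separate cultures, and p-values measure only the spread between these libraries.

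SOX proteins bind DNA through the HMG box, a domain that fits into the minor groove and bends the helix, and they usually act beside a partner transcription factor. The family is divided into groups by the sequence of this box. Group B1, which holds SOX3 and also SOX2, keeps neural and pluripotent progenitors undifferentiated, and group B2, with SOX21, counteracts it. Group C (SOX4, SOX11) acts in progenitors that leave the cycle, and group D (SOX5, SOX6) has no activation domain of its own and works beside group E in cartilage. Group E (SOX8, SOX9, SOX10) is known from cartilage, testis, neural crest and glia, and group F (SOX7, with SOX17 and SOX18) from endothelium and endoderm. In undifferentiated pluripotent cells SOX2 is the member that partners OCT4.

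The libraries held between 15877396 and 18918609 counts, and the 10 genes together took between 0.0359% and 0.0432% of them. PCGF6 was counted over all of its exons, of which the deletion takes only a part of the first. It took 268 and 300 counts in the WT libraries, against 99 and 103 for clone 1 and 187 and 159 for clone 2. Both clones were thus below both WT libraries, with a log2 change of −1.15 ± 0.27 (SE; adjusted p = 0.00914, edgeR) in the 4 PCGF6-KO libraries, and clone 2 kept more PCGF6 RNA than clone 1 by 0.90 on the log2 scale (adjusted p = 5.44e-05, edgeR). With WT replicate 1 or WT replicate 2 left out, the adjusted p for PCGF6 was 0.0511 and 0.0763. The summed level of 7 pluripotency markers lay between 7885 and 8234 CPM (counts relative to the TMM-scaled size of the library) for WT, 6159.7 and 6230.1 for clone 1, and 5658 and 5787 for clone 2, and none of the 7 was at 0. Of the 7, 1 was called lower in PCGF6-KO and 6 were not called, with a median log2 change of 0.00. The 1 was DNMT3B, with a mean of 3020 CPM in WT and 1367 in PCGF6-KO.

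Markers of other cell types, chosen with earlier results of these data known, moved with the genotype. The sum of 5 primitive streak markers was at most 4.54 CPM in WT, with MESP1 at 0, against at least 613 in the PCGF6-KO libraries, and 4 of the 4 tested were called higher. For 5 fibroblast markers the sum was at most 227 CPM in WT, with DCN and LUM at 0, against at least 1441, and 5 of 5 were called higher. Definitive endoderm markers summed to at most 2.58 CPM in WT, with SOX17 at 0, and to at least 22.3 in PCGF6-KO, and 4 of 5 were called higher. The 5 amnion and trophoblast markers summed to at most 12.1 CPM in WT and at least 24.4 in PCGF6-KO, and 1 of the 3 tested was called higher. This was GATA3, with a mean of 0.790 CPM in WT and 19.7 in PCGF6-KO. GABRP and KRT7, the others tested, had 6.74 and 3.37 CPM in WT and 6.71 and 2.37 in PCGF6-KO. The 5 neuroectoderm markers summed to at least 72.6 CPM in WT and at most 34.2 in PCGF6-KO, with HES5 at 0 in WT and SOX1 and HES5 at 0 in clone 2, and of the 3 tested, 1 was called higher and 1 lower. Most of this sum was OTX2, the gene called lower, with a mean of 72.1 CPM in WT and 30.1 in PCGF6-KO. LHX2, called higher, had 0.274 and 1.42 CPM, and PAX6, not called, 0.331 and 0.872. The part of such cells in the SOX changes was not tested, and in bulk RNA a change in the number of cells of a type and a change of RNA per cell cannot be told apart.

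Of the 10 SOX genes, 5 rose in PCGF6-KO cells and none fell. The 5 were SOX6, SOX5, SOX9, SOX21 and SOX10, so both genes of group D, 2 of the 3 genes of group E and the group B2 gene. A gene was called at an adjusted p under 0.05, from edgeR's quasi-likelihood test over all 17672 genes, together with an absolute log2 fold change over 0.6. Among all tested genes 14.9% were called higher and 8.70% lower by the same rule. SOX6 and SOX21 had 7 counts each in WT replicate 1 and passed the filter on low counts only through the PCGF6-KO libraries. With at least 10 counts asked of every library, neither was tested and 3 of the 10 were called higher. The share over all genes under that filter is not given here. DESeq2 called 4 of the 10 higher and 0 lower, and its shares over all genes are not given here. By the adjusted p of edgeR alone, 0 of the 10 were lower, where 2927 of all 17672 tested genes were. The median log2 fold change of the 10 was 0.77, against 0.00 over all tested genes. In 8 of the 10, all but SOX4 and SOX8, the 4 PCGF6-KO libraries were above both WT libraries, which held for 29.5% of all tested genes. In 0 of the 10 were all 4 below, which held for 27.6%. With CPM from library totals alone, without the TMM factors, SOX7 overlapped and all 4 PCGF6-KO libraries were below WT for SOX4, so that 7 were above and 1 below, beside 26.2% and 31.6%.

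**Figure D1:**
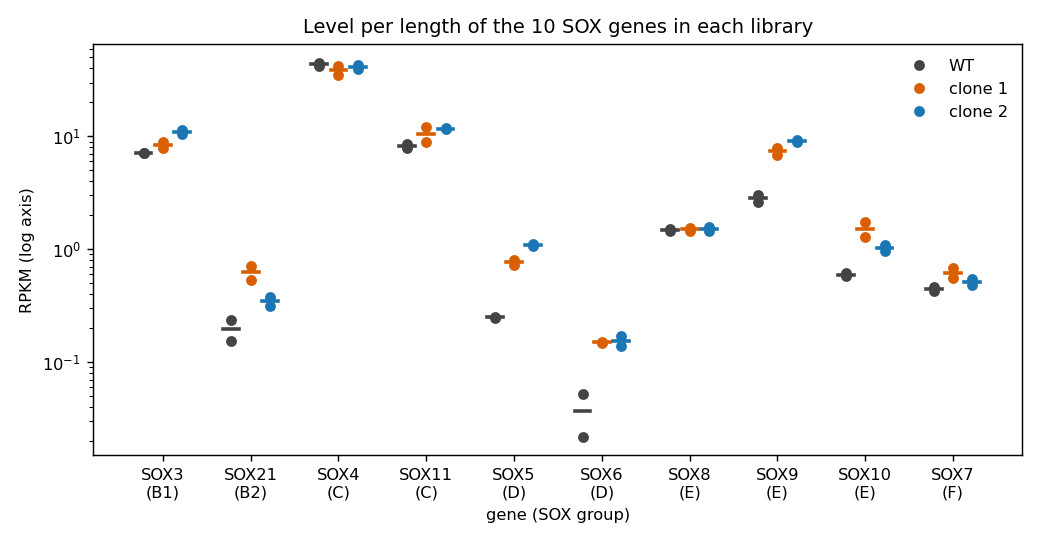
Level per length (RPKM, log axis) of the 10 SOX genes in each library of WT (grey), clone 1 (orange) and clone 2 (blue). Points are libraries and short lines are means of 2. SOX4 sits highest, between 34.9 and 44.9 RPKM, and SOX6 lowest in every group. The WT points of SOX5, SOX6, SOX9, SOX10 and SOX21 lie below all PCGF6-KO points, and those of SOX8 lie among them.

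Levels are compared between genes only as CPM divided by the gene length in kilobases (RPKM). In WT the order was SOX4 with 43.5 ± 1.99 RPKM (SD, n = 2), SOX11 with 8.19 ± 0.463, SOX3 with 7.07 ± 0.022 and SOX9 with 2.82 ± 0.256. Below them came SOX8 with 1.49 ± 0.0354 RPKM, SOX10 with 0.597 ± 0.0243, SOX7 with 0.443 ± 0.0210, SOX5 with 0.250 ± 0.00388, SOX21 with 0.196 ± 0.0584 and SOX6 with 0.0369 ± 0.0212. No neighbours in that order overlapped between their 2 libraries. In clone 1 the neighbours SOX11 and SOX3, SOX10 and SOX8, and SOX21 and SOX7 overlapped, and in clone 2 SOX5 and SOX10 did. SOX10 stood below SOX8 in WT and in clone 2. SOX5 passed SOX7, from rank 8 in WT to rank 7 in clone 1 and rank 6 in clone 2. SOX4 alone made up 68.6% and 66.1% of the summed RPKM of the 10 genes for WT, 53.7% and 56.3% for clone 1, and 52.0% and 54.3% for clone 2.

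The group D genes were among the lowest in WT and had the largest fold changes of the 10 when the clones were pooled. SOX5, a long transcription factor that acts beside SOX9 in cartilage and also guides cortical neurons, was counted 42 and 44 times in the WT libraries, 144 and 154 times in those of clone 1, and 202 and 185 times in those of clone 2. The groups did not overlap, and both clone 2 libraries were above both clone 1 libraries. SOX5 rose by 1.89 ± 0.23 on the log2 scale (SE), or 3.69-fold (adjusted p = 0.000283, edgeR). Its paralog SOX6, which shares this role and also acts in muscle and red cell maturation, took 7 and 17 counts in the WT libraries, against 56 and 54 for clone 1 and 49 and 54 for clone 2. All 4 PCGF6-KO libraries lay close together and above WT, where the 2 libraries differed from each other by a larger ratio than those of the clones. The log2 change of SOX6 was 2.03 ± 0.34 (adjusted p = 0.00165, edgeR), and it was 1.54 without WT replicate 1 and 2.78 without WT replicate 2. The summed RPKM of the pair was 0.269 and 0.304 for WT, 0.870 and 0.962 for clone 1, and 1.20 and 1.28 for clone 2. On the scale of RPKM the ratio of SOX5 to SOX6 was 11.3 and 4.87 in the 2 WT libraries and between 4.83 and 7.75 in the others, so no shift of the pair's ratio stood out from the spread in WT.

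SOX5 is on the minus strand of chromosome 12, at 23529504 to 24562544 (GRCh38), with 34 separate stretches of exon in GENCODE release 44. SOX6 is on the minus strand of chromosome 11, at 15966449 to 16739591, with 38. Promoter windows of 250 bases before to 50 after a start site were at hand in RefSeq (GRCh38.p14) for 5 of the 10 genes, SOX3, SOX21, SOX4, SOX5 and SOX6. They were searched on both strands for AACAAT, the core that SOX proteins bind, which is in 10.1% of 34943 promoter windows, for GCGGGAA, the site of E2F6, a PRC1.6 subunit, in 6.54%, and for CACGTG, the E-box of MAX, another subunit, in 7.23%. SOX6 had 5 such windows, of separate start sites, and each of the other genes had 1. SOX3, SOX21 and SOX4 had none of the 3 in their windows, and CACGTG was in none of the 5 genes' windows. AACAAT was in the SOX5 window and in 3 of the 5 SOX6 windows, once in each of 2 and on both strands in the third, and GCGGGAA was in the first SOX6 window. The stretch upstream of the SOX5 gene and the GCGGGAA match of SOX6 are given here, since both genes rose, with the match in capitals, which is the reverse complement of the motif as both lie on the opposite strand to it. A match describes the letters only, as no binding was measured here.
SOX5 chr12:24562545-24562741 (minus strand, AACAAT in reverse, first base at −179 from the start site): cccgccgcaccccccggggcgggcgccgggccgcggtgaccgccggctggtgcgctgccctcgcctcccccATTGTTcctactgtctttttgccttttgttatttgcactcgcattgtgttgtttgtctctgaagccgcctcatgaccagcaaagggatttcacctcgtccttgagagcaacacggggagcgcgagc
SOX6 chr11:16738428-16738457 (minus strand, GCGGGAA in reverse, first base 32 after the start site): gtggaggaagcgTTCCCGCggatgtgtatg

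Within group E the genes differed. SOX9, which directs cartilage and testis formation and is active in neural crest, was counted 169 and 197 times in the WT libraries, 518 and 559 times in those of clone 1, and 663 and 566 times in those of clone 2. Every PCGF6-KO library, at 27.1 CPM or more, was far above both WT libraries. SOX9 rose by 1.55 ± 0.15 on the log2 scale, or 2.92-fold, with the lowest adjusted p of the 10 (5.57e-05, edgeR). SOX10, the factor that specifies and maintains neural crest, melanocytes and myelinating glia, took 35 and 38 counts in the WT libraries, against 123 and 87 for clone 1 and 65 and 65 for clone 2. It rose by 1.09 ± 0.28 (adjusted p = 0.014, edgeR), with no overlap between WT and PCGF6-KO and the higher values in clone 1. The call was lost when WT replicate 1 or WT replicate 2 was left out, with adjusted p = 0.102 and 0.0877 (edgeR). Of the exon bases of SOX10, 5.39% are shared with POLR2F on the opposite strand, which had between 663 and 788 counts, and the strand setting of the counting is not stated. SOX8, the third member, was counted 109 and 108 times in the WT libraries, 132 and 117 times in those of clone 1, and 126 and 104 times in those of clone 2. Its libraries overlapped between the groups on the CPM scale, and its log2 change was 0.02, with a 95% confidence interval from −0.30 to 0.35 (adjusted p = 0.911, edgeR).

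The make-up of group E therefore differed between the genotypes. Its summed RPKM was 4.73 and 5.07 in the WT libraries, 10.2 and 10.6 for clone 1, and 11.8 and 11.5 for clone 2. SOX9 took 55.8% and 59.1% of the sum for WT, 67.7% and 74.0% for clone 1, and 78.6% and 77.8% for clone 2. The ratio of SOX9 to SOX8 within a library, which no scaling of libraries can move, was 1.75 and 2.05 in the WT libraries, 4.42 and 5.38 for clone 1, and 5.93 and 6.13 for clone 2. The 3 groups did not overlap in this ratio, with WT lowest and clone 2 highest. SOX9 lies on chromosome 17 at 72121020 to 72126416, SOX8 on chromosome 16 at 981770 to 986979, both on the plus strand, and SOX10 on the minus strand of chromosome 22 at 37970686 to 37987422.

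**Figure D2:**
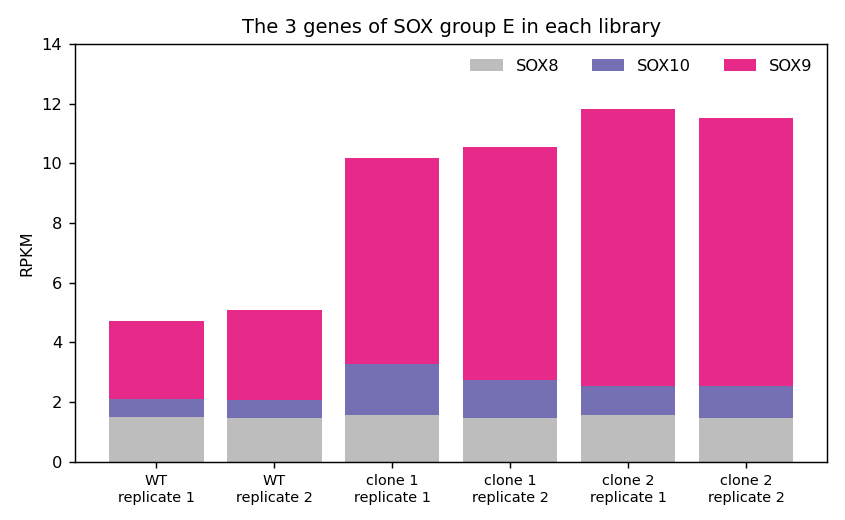
Summed level per length (RPKM, linear axis from 0) of SOX8 (grey), SOX10 (purple) and SOX9 (pink) in each of the 6 libraries. The SOX8 part keeps about the same height in all bars, whereas the whole bar goes from 4.73 and 5.07 RPKM in WT to between 10.2 and 11.8 in the clones.

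Group B held 1 gene that was called and 1 that was not. SOX21, which opposes group B1 and promotes neuronal differentiation, took 7 and 11 counts in the WT libraries, against 38 and 27 for clone 1 and 19 and 14 for clone 2. All PCGF6-KO libraries were above WT, but the lowest of them had only 14 counts. SOX21 rose by 1.30 ± 0.45 on the log2 scale (adjusted p = 0.0483, edgeR), and DESeq2 gave an adjusted p of 0.0965. Leaving out a library of WT or of clone 1 also ended the call, with adjusted p between 0.0802 and 0.266 (edgeR). SOX21 is a gene of 1 exon on chromosome 13, at 94709622 to 94712545 on the minus strand, and lies inside the span of the lncRNA SOX21-AS1 on the other strand without sharing exon bases with it. SOX21-AS1 was counted 6 and 8 times in the WT libraries, 13 and 27 times in those of clone 1, and 15 and 12 times in those of clone 2. With the clones pooled its log2 change was 1.13 (adjusted p = 0.093, edgeR). By clone it was 1.33 in clone 1 (adjusted p = 0.0331, edgeR), which was called, and 0.88 in clone 2 (adjusted p = 0.18, edgeR). In clone 1, 16.0% of all tested genes were called higher.

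SOX3, the group B1 gene closest to SOX2, took 246 and 251 counts in the WT libraries, against 364 and 305 for clone 1 and 436 and 356 for clone 2. All 4 PCGF6-KO libraries were above WT, at 16.8 to 24.0 CPM against 15.0 and 15.1. The adjusted p of 0.0454 (edgeR) passed, but the log2 change of 0.44 (95% confidence interval 0.10 to 0.78) stayed under the fold threshold, so SOX3 was not called. With WT replicate 1 or WT replicate 2 left out, that adjusted p was 0.19 and 0.188 (edgeR). SOX2, its group B1 relative, was counted 5321 and 5460 times in the WT libraries, 4711 and 4461 times in those of clone 1, and 2777 and 2658 times in those of clone 2, and fell by 0.69 on the log2 scale (adjusted p = 0.0178, edgeR). By clone, the log2 change of SOX2 was −0.41 in clone 1, which was not called, and −1.04 in clone 2, which was. Between the clones SOX2 was called lower in clone 2, by 0.63 (adjusted p = 1.33e-08, edgeR). SOX3 is a gene of 1 exon on the X chromosome, at 140502985 to 140505069 on the minus strand.

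The group C genes were the most abundant and were not called. SOX4, which acts in many progenitors and in the mesenchymal transition of epithelia, took 4283 and 4115 counts in the WT libraries, against 3906 and 4484 for clone 1 and 4232 and 3985 for clone 2. The groups overlapped, at 247 and 263 CPM in WT and between 204 and 248 in PCGF6-KO. The log2 change of SOX4 was −0.13, with a 95% confidence interval from −0.32 to 0.07 (adjusted p = 0.274, edgeR). SOX11, which acts beside SOX4 in neuronal progenitors, was counted 1116 and 1239 times in the WT libraries, 1486 and 1910 times in those of clone 1, and 1830 and 1644 times in those of clone 2. WT lay below all PCGF6-KO libraries, and clone 1 replicate 1, at 77.7 CPM, stood apart from the other PCGF6-KO libraries, at 101 to 105. The adjusted p of 0.0204 (edgeR) passed and the log2 change of 0.43 (95% confidence interval 0.16 to 0.71) did not reach the fold threshold. With 1 or the other WT library left out, the adjusted p of SOX11 was 0.167 and 0.079 (edgeR). Per length, SOX4 was 5.72 and 4.95 times SOX11 for WT, 3.92 and 3.50 times for clone 1, and 3.45 and 3.61 times for clone 2, so the ratio was lower in all 4 PCGF6-KO libraries. SOX4 and SOX11 each have 1 exon on the plus strand, on chromosome 6 at 21593751 to 21598619 and on chromosome 2 at 5692384 to 5701385. The 3 genes whose pattern over the 6 libraries was closest to that of SOX4, the most abundant of the 10, were USP46, SEC24B and CADPS2, with a root mean square distance of 0.0238, 0.0238 and 0.0240 in centred log2 CPM among 17671 genes.

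SOX7, a group F gene of endothelium and of primitive and parietal endoderm, took 24 and 23 counts in the WT libraries, against 34 and 40 for clone 1 and 32 and 25 for clone 2. The WT libraries, at 1.38 and 1.47 CPM, were below those of PCGF6-KO, at 1.56 to 2.20, although not on the scale of library totals alone. Its log2 change was 0.36, with a 95% confidence interval from −0.23 to 0.95 (adjusted p = 0.315, edgeR). SOX7 lies on the minus strand of chromosome 8, at 10723768 to 10730511, and 39.4% of its exon bases are shared with PINX1 on the same strand, which had between 703 and 876 counts, so its own level is uncertain.

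**Figure D3:**
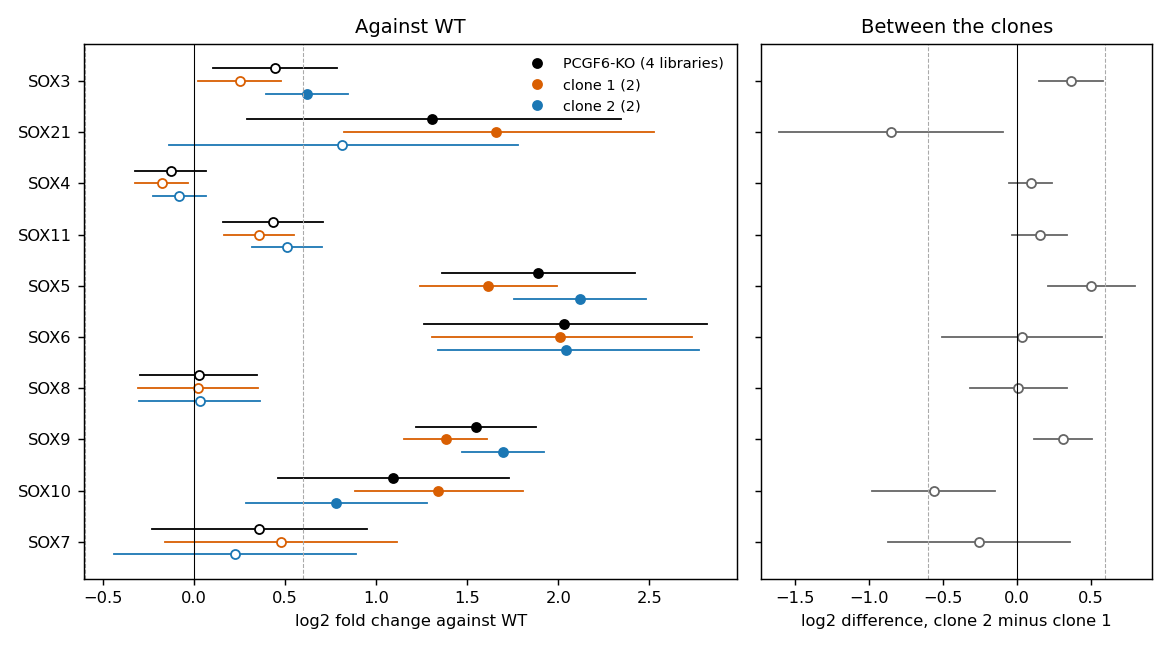
Log2 fold change of each SOX gene against WT (left) for the 4 PCGF6-KO libraries (black), clone 1 (orange) and clone 2 (blue), and log2 difference of clone 2 minus clone 1 (right). Bars are 95% confidence intervals, filled points are called genes and dashed lines are the fold threshold of 0.6. SOX5, SOX6, SOX9 and SOX10 are filled in all 3 series on the left, and no point on the right is filled.

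The clones were also compared one by one with WT in a fit of 3 groups. Both comparisons use the same 2 WT libraries, so they are given side by side and not as independent support. In clone 1, 5 of the 10 genes were called higher and 0 lower by edgeR, where 16.0% and 8.80% of all tested genes were called, and 7 of the 10 had an adjusted p under 0.05. In clone 2, 5 were called higher and 0 lower, beside 16.9% and 12.5%, and 6 had an adjusted p under 0.05. By that p alone, 4266 of all 17672 tested genes were higher and 3736 lower in clone 1. In clone 2 they were 4629 and 4275, so such a p was common among all genes. DESeq2 called 5 higher in clone 1, 4 in clone 2 and 0 lower in either, and its shares over all genes are not given here.

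SOX9 was 2.60-fold higher in clone 1 (log2 1.38 ± 0.11, adjusted p = 7.02e-11, edgeR) and 3.24-fold higher in clone 2 (log2 1.69 ± 0.11, adjusted p = 6.77e-13). SOX5 was 3.06-fold higher in clone 1 and 4.33-fold in clone 2, with adjusted p = 4.27e-08 and 1.04e-10 (edgeR). SOX6 was 4.02-fold and 4.12-fold higher (adjusted p = 2.59e-05 and 1.87e-05, edgeR), and its log2 change was between 1.53 and 2.79 with 1 of the WT libraries left out. SOX10 was 2.53-fold higher in clone 1 (adjusted p = 1.93e-05) and 1.72-fold in clone 2 (adjusted p = 0.00858, edgeR), where DESeq2 gave 0.0814. These 4 genes were called in both clones.

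The fifth gene was another in each clone. SOX21 was called in clone 1, with a log2 change of 1.66 ± 0.41 (adjusted p = 0.00166, edgeR), and had 0.81 in clone 2, with a 95% confidence interval from −0.14 to 1.78 (adjusted p = 0.148). SOX3 was called in clone 2, with 0.62 ± 0.11 (adjusted p = 3.3e-05, edgeR), just past the fold threshold, and had 0.25 in clone 1 (adjusted p = 0.0708). SOX11 passed the p alone in both, with log2 changes of 0.36 and 0.51, but in clone 1 it was 0.14 (adjusted p = 0.166, edgeR) without clone 1 replicate 2. SOX4 had −0.18 in clone 1 (adjusted p = 0.043, edgeR) and −0.08 in clone 2 (adjusted p = 0.355), and in clone 1 the p was lost without WT replicate 1 (adjusted p = 0.265) or without clone 1 replicate 1 (log2 −0.04, adjusted p = 0.645).

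The difference between the clones was tested itself. By edgeR 0 of the 10 genes were called in clone 2 against clone 1, where 7.87% of all tested genes were called, 3.73% higher and 4.14% lower. At an unadjusted p under 0.05 there were 5, for which the share over all genes is not given here. DESeq2 called 0 of the 10, and 407 higher and 403 lower over all genes. By the adjusted p of edgeR alone, 1883 of all 17672 tested genes were higher in clone 2 and 1559 lower. Of the 10, there were 3 with an adjusted p under 0.05. The 3 were SOX5, higher in clone 2 by 0.50 ± 0.14 on the log2 scale (adjusted p = 0.013), SOX3, by 0.37 ± 0.11 (adjusted p = 0.0135), and SOX9, by 0.31 ± 0.096 (adjusted p = 0.0211, edgeR). Each of the 3 had both clone 2 libraries above both clone 1 libraries, which held for 28.9% of all tested genes. With 1 library of the clones left out, SOX5 lost its adjusted p in 3 of 4 cases (0.0518 to 0.104), SOX9 in 3 of 4 (0.0561 to 0.164) and SOX3 in 2 of 4 (0.132 and 0.135, edgeR). DESeq2 gave 0.163 for SOX5, 0.122 for SOX9 and 0.107 for SOX3. SOX10 and SOX21 had differences of the opposite sign, −0.56 (95% confidence interval −0.98 to −0.14, adjusted p = 0.0525) and −0.85 (−1.61 to −0.10, adjusted p = 0.11, edgeR). Both clone 2 libraries were below both clone 1 libraries for SOX10, SOX21 and SOX7, which held for 26.6% of all tested genes. The intervals of the other differences were −0.05 to 0.24 for SOX4, −0.03 to 0.34 for SOX11, −0.51 to 0.58 for SOX6, −0.31 to 0.34 for SOX8 and −0.87 to 0.36 for SOX7. Besides PCGF6, other markers differed between the clones. Definitive endoderm markers summed to at most 23.0 CPM in clone 1 and more than that, up to 46.2, in both libraries of clone 2, and 3 of 5 were called higher. Primitive streak markers summed to at most 614 and at least 723 CPM, with 1 of 4 tested called higher and EOMES at −0.53 on the log2 scale. Fibroblast markers summed to at most 1448 and at least 1668 CPM, but only 1 of the 5, COL3A1, was called higher and their median log2 difference was −0.28. The part of PCGF6 and of these cells in the differences between the clones was not tested.

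**Figure D4:**
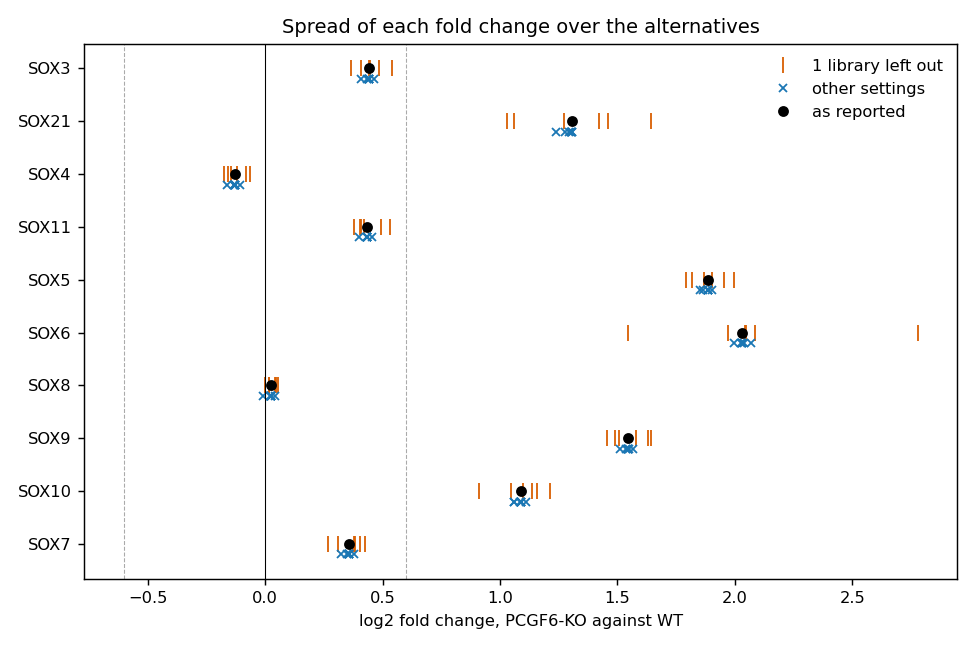
Log2 fold change in PCGF6-KO against WT of each SOX gene as reported (black), with 1 library left out (orange ticks) and under the other settings (blue crosses). Dashed lines mark the fold threshold of 0.6 in both directions. SOX6 has the widest spread, from 1.54 to 2.78 without one or the other WT library, and the crosses of every gene lie close to the value as reported.

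The genes of the same family that are not among the 10 gave a background for them. The table holds 9 such genes, of which 8 were tested, 4 were called higher and 1, SOX2, lower, where 14.9% and 8.70% of all tested genes were. The call of SOX2 was lost when WT replicate 1, WT replicate 2 or clone 2 replicate 1 was left out. SOX14, SOX17 and SOX18 had between 0 and 4 counts in each WT library and passed the filter only through the PCGF6-KO libraries. The count of genes called higher beside 14.9% thus depends on the filter. With at least 10 counts asked of every library they were not tested, and the 1 called higher was SOX15. SOX14, the second group B2 gene, had 3 and 4 counts in WT and between 74 and 91 in PCGF6-KO, a log2 change of 4.40 ± 0.33 (adjusted p = 1.37e-05, edgeR), beside 1.30 for its paralog SOX21, and this difference between genes was not tested. SOX15 had 134 and 97 counts in WT and between 1044 and 1333 in PCGF6-KO, a log2 change of 3.28 (adjusted p = 5.91e-07, edgeR). SOX18, in group F with SOX7, had 2 and 1 counts in WT and between 9 and 21 in PCGF6-KO, at least 4.22-fold higher when WT is set to 3 counts per library. SOX12, the third group C gene, and SOX13, the third group D gene, had log2 changes of −0.40 and −0.26 that passed the adjusted p and not the fold. SOX13 thus had the opposite sign to SOX5 and SOX6. SOX30 was not called (adjusted p = 0.379, edgeR), and SOX1 had at most 1 count in a library and was not tested.

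Genes that are known to act with or after the SOX genes were counted in lists, to be read against 14.9% called higher and 8.70% lower over all tested genes. The lists were chosen with earlier results of these data known, so their counts are not an independent comparison with these shares. Genes near 0 in WT, such as PAX3 and TWIST1, passed the filter only through the PCGF6-KO libraries. Of 6 tested POU and PAX partners, 1 rose and 1 fell, with a higher count of 0 without WT replicate 1 and of 2 without a filter: POU3F2 rose by 1.85 and POU3F1, a neural partner of group B1, fell by 2.13 on the log2 scale (adjusted p = 0.0218 and 7.83e-05, edgeR). Of 15 neural crest genes, 11 rose, 1 fell and 3 were not called, with a median log2 change of 4.78. Among them PAX3, which acts beside SOX10, had 2 and 0 counts in WT and at least 204 in PCGF6-KO, at least 79.1-fold higher, and TWIST1 had 0 counts in both WT libraries and at least 108, at least 57.4-fold higher. FOXD3, which pluripotent cells also express, fell by 2.74 (adjusted p = 1.15e-05, edgeR). Of 11 tested cartilage matrix genes, the textbook targets of SOX9, SOX5 and SOX6, 7 rose and 4 fell, with a median of 1.50. COL2A1, the main cartilage collagen, had 490 and 509 counts in WT and between 2471 and 3590 in PCGF6-KO, and HAPLN1 rose by 5.40 ± 0.43 on the log2 scale, while MATN4 fell by 1.48 and COL11A2 by 1.37.

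For the next lists too, the shares over all tested genes are 14.9% called higher and 8.70% lower, and the lists were chosen with earlier results known. Of 5 tested myelin and glial genes, 1 rose and 1 fell. The lower count was 2 without a filter, with the clones averaged or without clone 1 replicate 2. PMP22, which mesenchymal cells also express, rose by 4.77, and MBP, a myelin protein with further forms in other cells, fell by 1.09 on the log2 scale (adjusted p = 3.72e-06 and 0.00124, edgeR). Of 8 tested neuronal genes, 2 rose (PROX1 by 1.76 and STMN2 by 1.56), 1 fell (DCX by 0.80) and 5 were not called, and DCX lost its call without WT replicate 1. Of 10 tested endothelial genes, 2 rose and 4 fell: the receptor KDR rose by 1.68 and EFNB2 by 1.58, while TIE1 fell by 2.38 and ERG by 2.31. Of the 4 lncRNAs beside SOX genes, SOX21-AS1 and CASC15, near SOX4, were tested and neither was called with the clones pooled. By clone, SOX21-AS1 was called higher in clone 1 only. SOX9-AS1 had at most 8 counts and SOX5-AS1 had 0. The medians of the myelin, neuronal and endothelial lists were −0.35, 0.58 and −0.60, against 0.00 over all tested genes. The fibroblast and primitive streak markers rose in the same libraries as the neural crest and cartilage genes, and their part in those counts was not tested.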

How the data were processed

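RNA-seq libraries of WT PGP1 cells (2), PCGF6-KO clone 1 (2) and clone 2 (2) were used, grouped by the genotype label. Per the study's methods and the submitters' processing notes, the authors trimmed reads with Trim Galore 0.6.2, aligned them to GRCh38 with HISAT2 2.1.0, counted them with featureCounts and deposited raw counts per gene with gene lengths. Annotation release, strand setting and multi-mapping are not given in the sources used here, so reads of overlapping genes may be misassigned. The ChIP-seq samples of the series were not analysed here.

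Genes were filtered with filterByExpr on the 2 genotypes, scaled by TMM and tested with edgeR's quasi-likelihood test (edgeR 4.0.16, limma 3.58.1, R 4.3.3), with 4 PCGF6-KO against 2 WT libraries and with a fit of 3 groups for the clones. The residual spread in the fit with the clones pooled was a biological coefficient of variation of 0.12, which includes differences between the clones. Within each group the spread between libraries was above counting error, with a chi-square per degree of freedom of 2.53 (WT), 4.87 (clone 1) and 3.42 (clone 2). p-values were adjusted by Benjamini-Hochberg over 17672 genes, and calls used the study's thresholds (adjusted p under 0.05, absolute log2 fold change over 0.6). CPM were counts over the TMM-scaled library sizes, and RPKM were CPM over the deposited lengths. Fold bounds used a floor of 3 counts per library.

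On simulated counts for PCGF6-KO against WT (17236 genes run), 84 of 98 genes changed by 1 on the log2 scale and 97 of 97 changed by 2 were called, with 4 unchanged genes. For clone 2 against clone 1 (17254 genes run), 71 of 100 and 96 of 100 were called, with 7 unchanged. The simulation gave every gene the same biological coefficient of variation, 0.12, and no difference between the clones besides the planted changes. In the data the spread differs by gene and the clones differ, so these counts do not measure recovery or false calls there.

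All 10 SOX genes and the other SOX genes were named, PCGF6 as the check of the knockout, and of each other list up to 2 genes with the largest increase and up to 2 with the largest decrease among those called in the same direction in PCGF6-KO and in both clones. SOX21-AS1, CASC15, SOX9-AS1, SOX5-AS1, POLR2F and PINX1 were named for their positions. The SOX genes, the lists and the markers were chosen with earlier results of these data known. Results were recomputed with DESeq2 1.42.0, with RLE or upper-quartile scaling, with other filters and thresholds, with a block for the replicate number, with the clones averaged, with a fit of only the compared groups, and without each library in turn. CPM from library totals without TMM, for the overlap of groups, were added after the data were seen.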

Additional observations from a re-analysis of the deposited data

Results flagged for a closer look

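SOX11 had a library that stood apart in the PCGF6-KO group. Clone 1 replicate 1, at 77.7 CPM, was separated from the next library, at 101 CPM, by 0.849 of the range of the 4 PCGF6-KO libraries, above Dixon's critical value for 4 samples at the 95% level. With CPM from library totals alone, without TMM, the value was 0.67 and below the critical value. SOX11 was 1 of 10 genes tested in this way, and chance flags about 1 in 20 groups.

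The clones differed from each other for 3 genes in the test of clone 2 against clone 1 by edgeR. The log2 difference was 0.37 for SOX3 (adjusted p = 0.0135), 0.50 for SOX5 (adjusted p = 0.013) and 0.31 for SOX9 (adjusted p = 0.0211), with both clone 2 libraries above both clone 1 libraries in each. All 3 were under the fold threshold of 0.6. By the adjusted p alone, 1883 of all 17672 tested genes were higher in clone 2 and 1559 lower. Both clone 2 libraries were above both clone 1 libraries for 28.9% of all tested genes. With 1 library of the clones left out, the adjusted p was above the threshold in 2 of 4 cases for SOX3, 3 of 4 for SOX5 and 3 of 4 for SOX9.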

How the results depend on the processing

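SOX5, SOX6 and SOX9 were called higher in PCGF6-KO and in each clone under every alternative that tested them. The calls of SOX21 and SOX10 in PCGF6-KO, and of SOX3 and SOX10 in clone 2, did not hold under all. With at least 10 counts in every library 8 of the 10 genes were tested, without SOX6 and SOX21, and 3 were called higher in PCGF6-KO and 3 in clone 1. By the adjusted p alone, 1 gene (SOX4) was lower in clone 1 and 3 were higher in clone 2 than in clone 1. With 1 library left out, genes called higher in PCGF6-KO numbered 3 to 5 (3 with either WT library left out), in clone 1 5 to 5 and in clone 2 4 to 5, and genes called lower 0 to 0 in each. In clone 2 against clone 1 there were 0 to 0 higher and 0 to 1 lower, the 1 being SOX10 without clone 1 replicate 2 (log2 −0.76, adjusted p = 0.0192, edgeR). Where a group is left with 1 library, it is assumed to vary like the others. By CPM without division by length, 5 of the 10 genes kept their rank in WT. Other lost calls were SOX21 with upper-quartile scaling (adjusted p = 0.0545), SOX3 in clone 2 with that scaling or without clone 2 replicate 1 (log2 0.57 in both), and SOX10 in clone 2 without clone 2 replicate 2 (adjusted p = 0.0543, edgeR).

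Signs changed for 4 genes, in differences that were never called. Between the clones, SOX4 and SOX11 were lowest without clone 1 replicate 1 and highest without clone 1 replicate 2. For SOX8 with upper-quartile scaling they were −0.0083 in PCGF6-KO, −0.00046 in clone 1, −0.014 in clone 2 and −0.014 between the clones. SOX8 was −0.0026 between the clones with only those groups, −0.027 in clone 1 without clone 1 replicate 1, −0.013 in clone 2 without clone 2 replicate 1, and between the clones −0.043 without clone 1 replicate 2 and −0.042 without clone 2 replicate 1. Between the clones, SOX4 was −0.031 and SOX11 −0.044 without clone 1 replicate 1, and SOX6 −0.13 without clone 2 replicate 2. With the other libraries left out in turn, the highest values reached were 0.084 in clone 1 and 0.081 in clone 2 for SOX8, and between the clones 0.067 for SOX8, 0.23 for SOX4, 0.38 for SOX11 and 0.19 for SOX6. The cause was not tested.

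Replicate numbers did not pair the samples: same-numbered deviations correlated over 17672 genes at r = −0.0015 for WT and clone 1, 0.044 for WT and clone 2 and 0.063 for the clones. With the replicate number as a block, 4 SOX genes were called higher in PCGF6-KO, without SOX21 (log2 1.29, adjusted p = 0.0819, edgeR), 5 in clone 1 and 5 in clone 2, and 0 were called lower or between the clones.

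Over all tested genes, clone 2 against clone 1 gave 659 higher and 731 lower, 407 and 403 with DESeq2, 382 higher with at least 10 counts in every library, and 1883 and 1559 by the adjusted p alone. By the adjusted p alone, 2927 genes rather than 1537 were lower in PCGF6-KO, 4266 higher and 3736 lower rather than 2823 and 1556 in clone 1, and 4629 and 4275 rather than 2983 and 2214 in clone 2. With library totals in place of TMM, chosen after seeing the data, 7 rather than 8 of the SOX genes were above WT in all PCGF6-KO libraries and 1 rather than 0 below. Of the lists, neural crest genes called higher fell from 11 to 3 with at least 10 counts in every library, which drops genes with few counts in WT. The median log2 change of all genes was 0.00 with TMM, −0.03 with upper-quartile scaling and 0.10 without a filter. SOX21, SOX6 and SOX7 rest on fewer than 60 counts in every library, so changes under 1 on the log2 scale may be missed for them.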
